A study of Mus musculus with 10 samples.

Results

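The insulin-like growth factor (IGF) genes measured here were the 2 ligands Igf1 and Igf2, the 2 receptors Igf1r and Igf2r, and the 6 binding protein genes Igfbp2, Igfbp3, Igfbp4, Igfbp5, Igfbp6 and Igfbp7. They were picked by gene symbol, and all 10 members were found among the 55486 genes of the count table. Levels are given as CPM, a gene's counts scaled to the same total in every library. A level is compared between genes only after division by exon length, as CPM per kilobase of exon (RPKM).

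The study cultured mouse mammary fibroblasts and lobular breast tumor cells in gels of collagen and basement membrane extract (BME) for 7 days, sorted the cells apart and sequenced polyA RNA from each sort. The fibroblasts were normal fibroblasts (NFs) from mammary glands of mTmG reporter mice that were 8 weeks old, kept for 1 week in 2D culture and then mixed 1:1 as CD26- and CD26+ NFs. CD26- NFs carried the Tomato label of the reporter, whereas CD26+ NFs had been turned to GFP with an adenovirus that delivers Cre, so that the virus and the subset cannot be told apart. The tumor cells were the lines 13-MCB-17 and 10-SJK-221, grown from tumors of WapCre;Cdh1F/F mice in which Cre is driven by a milk protein promoter and E-cadherin is lost in mammary epithelium. A further floxed gene of that genotype is not reported here.

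Each of the 5 gels gave 1 library per sorted cell type, 10 libraries in all. Gel 1 held NFs alone and gave 1 CD26- and 1 CD26+ library. Gel 2 held 13-MCB-17 tumor cells alone and gel 3 held 10-SJK-221 tumor cells alone. Gel 4 combined both NF subsets with 13-MCB-17, gel 5 combined them with 10-SJK-221, and each gave a CD26-, a CD26+ and a tumor library. NFs alone therefore came from 1 gel and NFs beside tumor cells from 2, so that every difference between those cultures cannot be told apart from what was particular to gel 1. Each tumor line stands for 1 tumor, the NFs of a sort usually came from several pooled mice, and the 2 subsets of a gel are not independent cultures. The p-values measure the spread between these libraries only.

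IGF1 and IGF2 are secreted growth factors that act through the receptor tyrosine kinase encoded by Igf1r, which drives growth and survival signaling. Igf2r encodes a receptor that takes up IGF2 for breakdown and also carries mannose 6-phosphate-tagged enzymes to lysosomes. The binding proteins hold IGFs outside the cell, where they can block, store or deliver them, and proteases can cut them and free the ligand. In the mammary gland the stroma is a known source of IGF1, and epithelial cells carry the receptor.

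The libraries held 14142334 to 18408940 counts, so that 3 counts, taken here as the floor of detection, correspond to 0.163 to 0.212 CPM. Intervals and floors of this kind cover counting error only. The summed level of 10 fibroblast markers was 73645 to 80118 CPM in NFs alone, 44304 to 50172 CPM in co-cultured CD26- NFs, 26269 to 32662 CPM in co-cultured CD26+ NFs, 39.5 to 72.1 CPM in tumor cells alone and 132 to 211 CPM in tumor cells from co-culture. The summed level of 10 epithelial markers was 0.807 to 1.12 CPM in NFs alone, 121 to 148 CPM in co-cultured CD26- NFs, 178 to 327 CPM in co-cultured CD26+ NFs and 4233 to 5577 CPM across the 4 tumor libraries. Epithelial markers above the floor numbered 1 to 2 of 10 in NFs alone and 10 of 10 in every co-cultured NF library, and their part in the co-culture, subset and interaction results was not tested. Neither sum overlapped between the co-cultured subsets. Of 5 pericyte markers all were above the floor in every NF library, and their sum was 60.6 and 86.0 CPM in CD26- and CD26+ NFs alone, 242 to 389 CPM in co-cultured CD26- NFs and 151 to 199 CPM in co-cultured CD26+ NFs. Notch3 and Mcam made up most of that sum in co-culture. The sum of 6 immune markers was 5.46 to 10.0 CPM in NFs alone, 31.3 to 62.4 CPM in co-cultured NFs, 101 to 301 CPM in tumor cells alone and 47.9 to 92.2 CPM in co-cultured tumor cells. It came mostly from Cd68 and Csf1r, with 2 or 3 of the 6 above the floor in a library and Ptprc, which encodes CD45, at or under the floor in all 10, and its part in the culture results was not tested. Dpp4, which encodes CD26 itself, reached 12 counts at most in any library (0.771 CPM in CD26+ NFs of gel 4) and had 0 or 1 count in each CD26- NF library, so that the subset names rest on the sort and the reporter color.

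**Figure D1:**
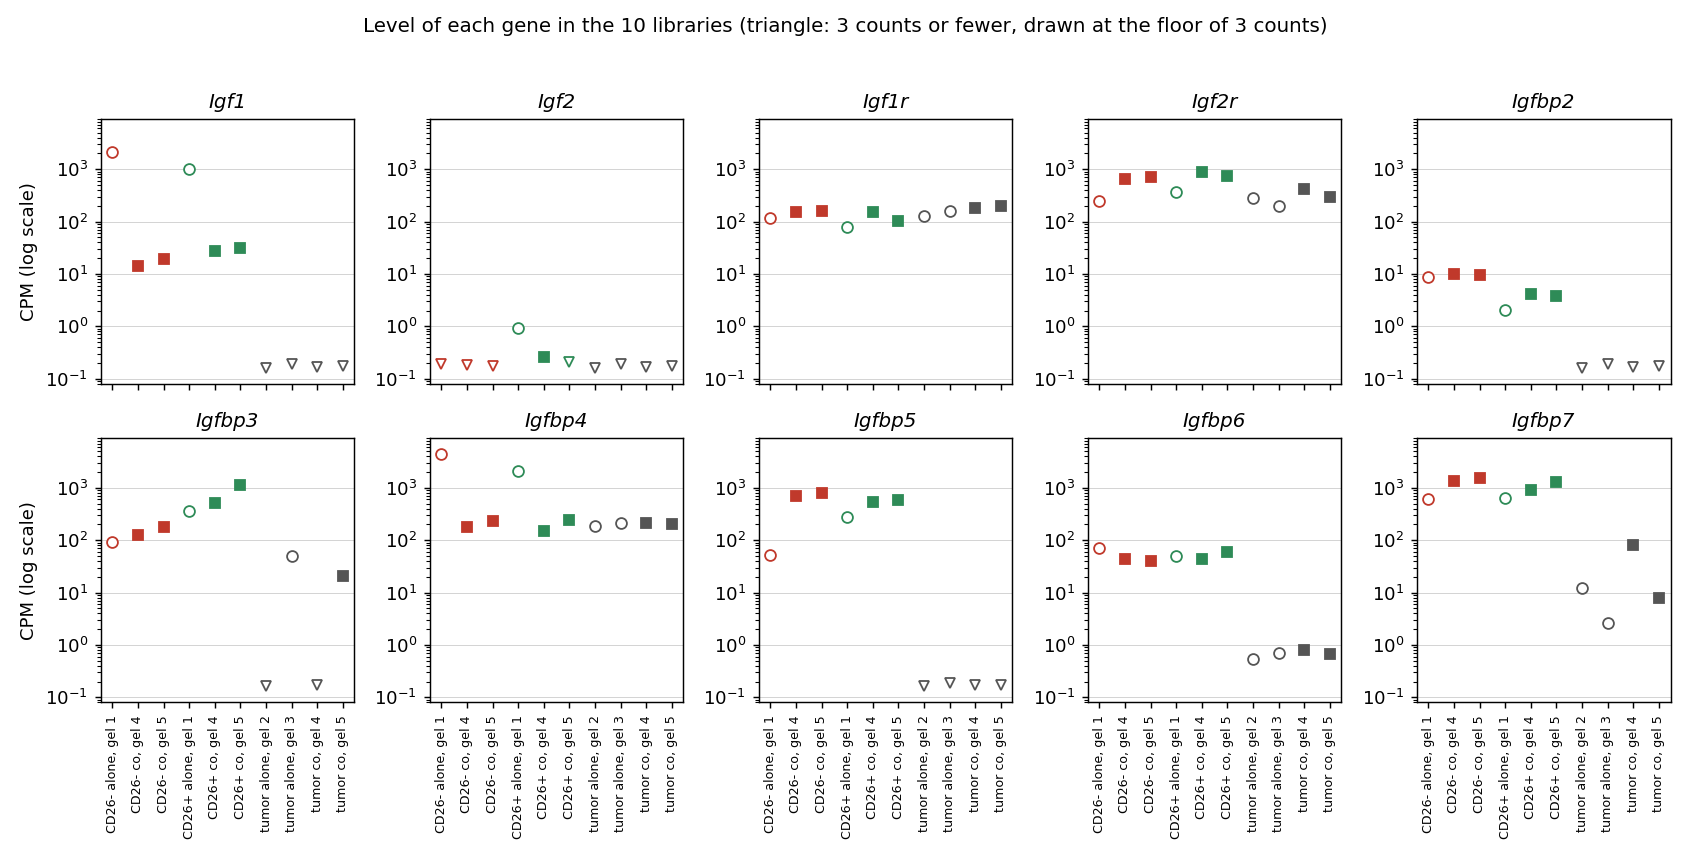
Level of the 10 IGF genes in the 10 libraries, in CPM on a log axis, with 1 panel per gene. Red points are CD26- NFs, green points CD26+ NFs and gray points tumor cells. Open circles stand for cells grown alone and filled squares for co-culture, and triangles mark 3 counts or fewer, drawn at the floor. Igf1 and Igfbp4 are highest in the NFs of gel 1, while Igfbp5 is highest in NFs of gels 4 and 5 and at the floor in all 4 tumor libraries.

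Igf1 (chr10:87858265-87937042, plus strand, GRCm38) was a fibroblast transcript in these gels, and its level was far lower in NFs beside tumor cells than in NFs alone. In CD26- NFs it stood at 2106 CPM in gel 1, 13.9 CPM in gel 4 and 19.0 CPM in gel 5. CD26+ NFs held 1029 CPM in gel 1, 26.9 CPM in gel 4 and 31.8 CPM in gel 5. The 4 co-culture NF libraries thus lay between 13.9 and 31.8 CPM, below both libraries of NFs alone, with no overlap. In tumor cells Igf1 had 0 counts in both libraries grown alone, and 2 and 3 counts in the co-cultured ones, which is at or under the floor. With both subsets of a gel averaged, Igf1 was at least 8861-fold higher in NFs than in tumor cells alone and at least 134-fold higher in the shared gels, each against the floor of 3 counts per library.

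Igf1 fell in co-culture, with a log2 fold change of -6.10 ± 0.37 (± SE) over both subsets (adjusted p = 1.94e-06), and within each subset. The log2 fold change was -6.93 ± 0.27 in CD26- NFs (adjusted p = 1.24e-09), against -5.09 ± 0.26 for CD26+ NFs (adjusted p = 1.40e-08). NFs alone are 1 library per subset, so that within a subset the spread comes from the co-cultured pairs and the lone library is assumed to vary like them. All 4 gel-by-gel ratios had this direction, at 152-fold and 111-fold lower in CD26- NFs and 38.3-fold and 32.4-fold lower in CD26+ NFs. In bulk libraries, fewer cells that express a gene and less of its RNA per cell cannot be told apart. The summed fibroblast markers given above were also lower in co-cultured NFs, and their part in the Igf1 result was not tested.

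The order of the subsets differed between cultures. CD26- NFs held 2.05 times as much Igf1 as CD26+ NFs in gel 1, whereas CD26+ NFs held 1.94 times as much in gel 4 and 1.68 times as much in gel 5. The test of that difference, the interaction of subset and culture, gave 1.83 ± 0.36 on the log2 scale and an adjusted p of 0.0499, just under the threshold of 0.05. The call was lost on leaving out any of the 4 co-cultured NF libraries, with adjusted p of 0.256 and 0.0618 without the CD26- library of gel 4 or 5, and 0.637 and 0.409 without the CD26+ library of gel 4 or 5. Without either of those CD26+ libraries no gene at all was called in the interaction (edgeR; 1232 and 1772 genes had an unadjusted p under 0.05), so that those 2 losses say nothing of a single gene. Every alternative kept the gel 1 libraries, so that NFs alone were never varied. The log2 value itself stayed between 1.59 and 2.13 under all of them. With every gene of at least 1 count kept it had an adjusted p of 0.161.

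Igf2, an imprinted fetal growth factor gene (chr7:142650766-142666816, minus strand), was barely detected. It had 13 counts (0.912 CPM) in CD26+ NFs alone, 4 and 3 counts in CD26+ NFs of gels 4 and 5, and 0 or 1 count in every other library. The 4 tumor libraries each had 0 counts, which allows up to 0.163 to 0.191 CPM. Of its exon length, 64.5% overlaps other annotated genes, among them Gm49394 on the same strand, so that its few counts are uncertain. With all libraries in the fit no test of Igf2 passed the threshold.

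The receptor genes were expressed by every cell type and moved far less than Igf1. Igf1r (chr7:67952827-68233668, plus strand) stood at 118, 153 and 160 CPM for CD26- NFs of gels 1, 4 and 5 and at 79.7, 155 and 102 CPM in CD26+ NFs of the same gels. Tumor cells held 126 CPM (13-MCB-17) and 160 CPM (10-SJK-221) alone, and 178 and 197 CPM in co-culture. The lowest value was that of CD26+ NFs alone, the highest those of co-cultured tumor cells, and the ranges of NFs and tumor cells overlapped. Tumor cells and NFs did not differ past the threshold in either culture, with log2 differences (NFs minus tumor) of -0.43 ± 0.20 alone (adjusted p = 0.101) and -0.20 ± 0.17 in shared gels (adjusted p = 0.34).

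Igf1r rose in NFs beside tumor cells by 0.59 ± 0.17 on the log2 scale over both subsets (adjusted p = 0.0183). Within subsets the rise passed the threshold in CD26+ NFs (0.73 ± 0.25, adjusted p = 0.0379), while CD26- NFs had 0.47 ± 0.24 (adjusted p = 0.159), and the interaction of 0.25 ± 0.34 (adjusted p = 0.968) did not separate them. The CD26+ call was lost without the CD26+ library of gel 4 (adjusted p = 0.154). Tumor cells also had more Igf1r in co-culture, by 0.37 ± 0.10 on the log2 scale (adjusted p = 0.0353), in both lines. In a fit of all 10 libraries the tumor difference in Igf1r was 0.37 with an adjusted p of 0.237, and DESeq2 on the 4 tumor libraries gave 0.36 with an adjusted p of 0.156.

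Igf2r (chr17:12682406-12769664, minus strand) was higher in co-culture in all 3 cell types. It stood at 245, 637 and 718 CPM for CD26- NFs of gels 1, 4 and 5 and at 374, 899 and 742 CPM in CD26+ NFs. The co-culture NF libraries lay above both libraries of NFs alone, with no overlap. The rise was 1.53 ± 0.24 on the log2 scale in CD26- NFs (adjusted p = 2.86e-04), against 1.17 ± 0.24 for CD26+ NFs (adjusted p = 0.00191). In tumor cells Igf2r went from 278 to 419 CPM in 13-MCB-17 and from 199 to 291 CPM in 10-SJK-221, a rise of 0.54 ± 0.11 (adjusted p = 0.00783). That rise had an adjusted p of 0.0483 in a fit of all 10 libraries, and of 0.304 to 0.492 in that wider fit with any 1 tumor library left out. NFs exceeded tumor cells within the shared gels by 1.27 ± 0.23 (adjusted p = 0.00205), and their log2 difference when grown alone was 0.47 ± 0.25 (adjusted p = 0.144). Per length, Igf2r exceeded Igf1r in every library, at 21.4 to 96.6 RPKM against 4.74 to 11.7 RPKM.

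The binding protein genes carried the remaining changes. The 250 bases before the RefSeq start of 4 of them are shown because these genes had the largest log2 changes between cultures in the fit over both subsets (Igfbp4, Igfbp5, Igfbp7) or differed between subsets and lines (Igfbp3). Sequences are RefSeq windows on GRCm38.p6, read 5′ to 3′ on the strand of the gene. They lie at chr11:7213924-7214173 (Igfbp3, minus strand), chr11:99040994-99041243 (Igfbp4, plus strand), chr1:72874885-72875115 (Igfbp5, minus strand, shortened to 231 bases where an annotated exon begins) and chr5:77408046-77408295 (Igfbp7, minus strand). Capitals mark matches, on either strand, to the TATA box TATAAA, the GC box GGGCGG, the CCAAT box, the E-box CACGTG, the AP-1 motif TGANTCA or the forkhead motif TGTTTAC.
Igfbp3: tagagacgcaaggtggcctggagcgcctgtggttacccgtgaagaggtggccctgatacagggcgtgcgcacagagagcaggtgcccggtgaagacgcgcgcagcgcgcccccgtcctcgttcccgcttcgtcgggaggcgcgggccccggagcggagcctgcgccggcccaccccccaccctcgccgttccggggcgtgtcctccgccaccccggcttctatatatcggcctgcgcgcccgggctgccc
Igfbp4: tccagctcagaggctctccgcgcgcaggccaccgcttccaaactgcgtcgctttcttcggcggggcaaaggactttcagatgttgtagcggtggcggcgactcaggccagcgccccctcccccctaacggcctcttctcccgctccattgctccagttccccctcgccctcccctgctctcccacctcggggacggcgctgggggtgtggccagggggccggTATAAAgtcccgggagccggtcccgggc
Igfbp5: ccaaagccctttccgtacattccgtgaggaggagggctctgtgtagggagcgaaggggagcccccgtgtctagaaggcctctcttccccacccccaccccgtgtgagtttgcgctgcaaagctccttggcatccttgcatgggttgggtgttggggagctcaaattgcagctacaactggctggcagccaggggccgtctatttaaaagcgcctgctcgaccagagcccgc
Igfbp7: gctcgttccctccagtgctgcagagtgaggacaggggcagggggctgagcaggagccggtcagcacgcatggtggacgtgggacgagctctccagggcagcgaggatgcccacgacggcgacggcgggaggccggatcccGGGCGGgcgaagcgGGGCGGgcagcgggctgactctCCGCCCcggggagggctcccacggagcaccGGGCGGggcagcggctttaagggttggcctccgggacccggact

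The Igfbp4 window held 1 TATA box, which 12.4% of 32851 RefSeq windows of that length held. The Igfbp7 window held 4 GC boxes, a motif found at least once in 32.7% of windows. The windows of Igfbp3 and Igfbp5 held none of the 6 motifs. Across the 14 windows of the 10 members, 2 held a TATA box, 6 a GC box, 3 a CCAAT box, 2 an E-box, 2 an AP-1 motif and 0 a forkhead motif, against 12.4%, 32.7%, 33.9%, 6.02%, 6.75% and 3.17% of all windows. A match describes letters only. The Igf1 window lies wholly inside annotated exons and is not printed.

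Igfbp4 (chr11:99041244-99054392, plus strand), whose protein mostly restrains IGF action until it is cleaved, fell together with Igf1. Its level in CD26- NFs was 4478 CPM in gel 1, 181 CPM in gel 4 and 234 CPM in gel 5. CD26+ NFs held 2124, 148 and 243 CPM. Tumor cells held 183 and 217 CPM alone and 211 and 201 CPM in co-culture, so that co-cultured NFs and tumor cells overlapped, while NFs alone stood above all 8 other libraries. The log2 fold change was -4.36 ± 0.30 in CD26- NFs (adjusted p = 1.70e-07), against -3.40 ± 0.29 for CD26+ NFs (adjusted p = 1.52e-06). As for Igf1, the summed fibroblast markers were also lower in co-cultured NFs, and their part in the Igfbp4 result was not tested. NFs exceeded tumor cells by 4.08 ± 0.30 when grown alone (adjusted p = 1.14e-05), and in shared gels the log2 difference was 0.17 ± 0.23 (adjusted p = 0.56). At the share of epithelial markers seen in co-cultured NF libraries, 2.72 to 6.30% of the tumor level of the same gel, tumor RNA would give 5.72 to 12.6 CPM of Igfbp4 there.

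Igfbp5 (chr1:72857932-72874884, minus strand), the binding protein known for its tie to matrix and to mammary involution, rose in co-culture, most in CD26- NFs. Its level in CD26- NFs was 51.7 CPM in gel 1, 714 CPM in gel 4 and 799 CPM in gel 5. CD26+ NFs held 280, 542 and 579 CPM. Both libraries of NFs alone lay below all 4 co-cultured ones, and tumor cells held 0 counts alone and 3 counts in each co-culture. The rise was 3.94 ± 0.27 on the log2 scale in CD26- NFs (adjusted p = 1.70e-07), against 1.04 ± 0.23 for CD26+ NFs (adjusted p = 0.00328). The summed pericyte markers given above were also higher in co-culture, and higher in CD26- than in CD26+ NFs there, while the marker Rgs5 stood at 9.25 and 6.11 CPM in the gel 1 libraries, against 1.88 to 6.22 CPM in co-culture. Their part in the Igfbp5 result was not tested.

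CD26+ NFs held 5.41 times as much Igfbp5 as CD26- NFs in gel 1, whereas CD26- NFs held 1.32 and 1.38 times as much as CD26+ NFs in gels 4 and 5. The interaction, whose alternatives also kept the gel 1 libraries throughout, was -2.90 ± 0.32 on the log2 scale (adjusted p = 0.00224), the opposite sign to that of Igf1. Its size stayed between -3.02 and -2.77 under every alternative, but the call was lost without the CD26+ library of gel 4 (adjusted p = 0.637) or gel 5 (adjusted p = 0.409), where no gene was called (1232 and 1772 had an unadjusted p under 0.05 in edgeR). Igfbp5 was at least 936-fold higher in NFs than in tumor cells alone and at least 3864-fold higher in the shared gels.

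**Figure D2:**
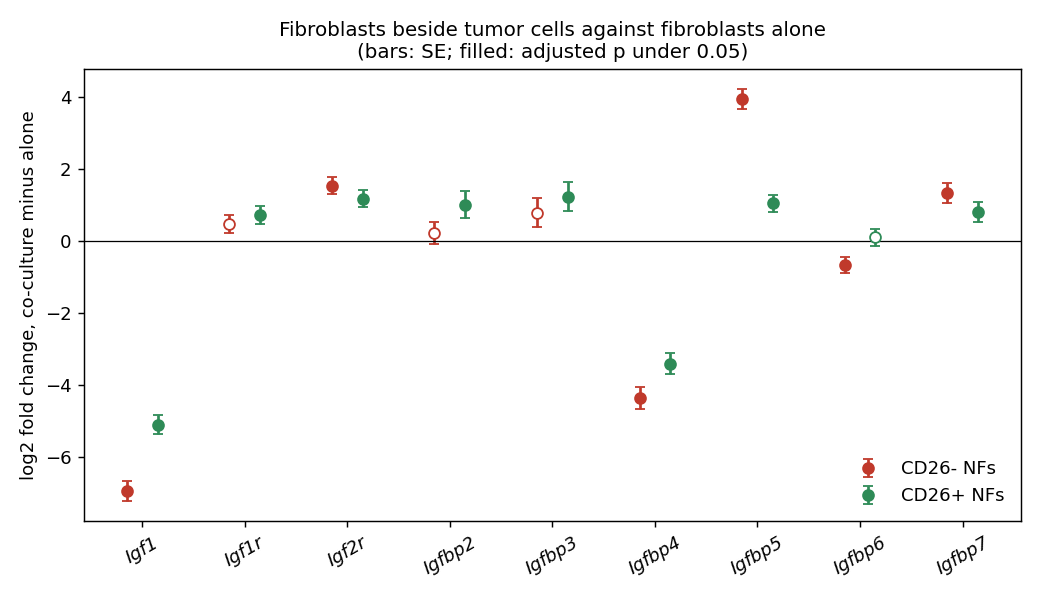
Log2 fold change between NFs beside tumor cells and NFs alone for 9 of the 10 genes (Igf2 was left out because it was at the floor in most libraries), for CD26- NFs in red and CD26+ NFs in green. Bars are the SE of the edgeR fit and filled points had an adjusted p under 0.05. Igf1 and Igfbp4 lie far below 0 in both subsets, and Igfbp5 stands at 3.94 in CD26- against 1.04 in CD26+ NFs.

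Igfbp7 (chr5:77349240-77408041, minus strand), which encodes a secreted low-affinity relative of the classical binding proteins, was the binding protein transcript with the highest per-length level in co-cultured NFs. It stood at 607, 1347 and 1562 CPM for CD26- NFs of gels 1, 4 and 5 and at 654, 928 and 1297 CPM in CD26+ NFs. Both libraries of NFs alone lay below the 4 co-cultured ones. The rise was 1.33 ± 0.27 on the log2 scale in CD26- NFs (adjusted p = 0.00229), against 0.81 ± 0.27 for CD26+ NFs (adjusted p = 0.0325), the latter lost without the CD26+ library of gel 4 (adjusted p = 0.0543) or gel 5 (adjusted p = 0.191). The summed pericyte markers had the same order over cultures and subsets, and their part in this rise was not tested. Of its exon length, 7.03% overlaps Polr2b on the opposite strand, and the strand setting used in counting is not given in the sources used here.

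In tumor cells Igfbp7 went from 12.4 to 81.2 CPM in 13-MCB-17 and from 2.67 to 7.99 CPM in 10-SJK-221. The rise in co-culture was 2.29 ± 0.24 on the log2 scale (adjusted p = 5.47e-04) and 10-SJK-221 had less than 13-MCB-17 in both cultures, by -2.995 ± 0.25 (adjusted p = 2.41e-04). Fibroblast markers in the co-cultured tumor libraries reached 0.597% (gel 4) and 0.32% (gel 5) of their NF level, and at those shares NF RNA would give 6.79 and 4.57 CPM of Igfbp7. The same shares would give 3.75 and 2.2 CPM of Igfbp5, of which 0.17 CPM was seen in each library. The part of NF RNA in the rise of either line was not tested. In a fit of all 10 libraries it was 2.26 (adjusted p = 4.54e-04), and without the co-cultured 13-MCB-17 library that fit gave 1.57 (adjusted p = 0.0532).

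Igfbp3 (chr11:7206086-7213923, minus strand), the main IGF carrier of the circulation, was higher in CD26+ than in CD26- NFs and differed between the 2 tumor lines. In CD26+ NFs it stood at 364, 515 and 1141 CPM in gels 1, 4 and 5, against 92.8, 124 and 181 CPM in CD26- NFs of the same gels. The CD26+ level was 3.92, 4.15 and 6.31 times that of CD26- in the 3 gels, and the subset ranges did not overlap. The subset difference was 2.13 ± 0.29 on the log2 scale over the 3 gels (adjusted p = 0.00548). In tumor cells the line 10-SJK-221 held 49.0 CPM alone and 21.0 CPM in co-culture, whereas 13-MCB-17 had 1 and 2 counts. The tumor lines differed by at least 301-fold alone and at least 124-fold in co-culture, against the floor.

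Igfbp3 was higher in co-cultured NFs over both subsets by 1.00 ± 0.31 on the log2 scale (adjusted p = 0.0246), which was 0.47 (adjusted p = 0.0677) without gel 5 and had an adjusted p of 0.0722 by DESeq2. With the counts of both subsets summed per gel the log2 difference was 1.11, between 1 gel and 2. NFs beside 10-SJK-221 held more Igfbp3 than NFs beside 13-MCB-17, at 1.46-fold in CD26- and 2.22-fold in CD26+ NFs, in 1 gel per line and so with no test. Within tumor cells the fitted co-culture difference of -1.18 ± 0.24 (adjusted p = 0.00909) described 10-SJK-221 alone. In a fit of all 10 libraries its adjusted p was 0.159, and without either 10-SJK-221 library that fit gave 0.92 (adjusted p = 0.986 and 0.987).

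Igfbp2 (chr1:72824503-72852474, plus strand), a binding protein with an integrin-binding motif, was a low fibroblast transcript that was higher in the CD26- subset. It stood at 8.69, 9.82 and 9.50 CPM in CD26- NFs and at 2.04, 4.18 and 3.82 CPM for CD26+ NFs of gels 1, 4 and 5, and it had 0 counts in all 4 tumor libraries. The subset ranges did not overlap, and CD26+ NFs held less by -1.67 ± 0.24 on the log2 scale over the 3 gels (adjusted p = 0.00633). In NFs as a whole it was at least 30.3-fold higher than in tumor cells alone and at least 40.1-fold higher in the shared gels. Its rise in CD26+ NFs beside tumor cells (1.01 ± 0.37) had an adjusted p of 0.0496, and no alternative kept that call, with adjusted p of 0.1105 and 0.0827 without the CD26+ library of gel 4 or 5.

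Igfbp6 (chr15:102144362-102149511, plus strand), whose protein prefers IGF2, varied little among NFs. CD26- NFs held 69.9, 44.3 and 40.2 CPM and CD26+ NFs held 49.6, 43.9 and 59.3 CPM in gels 1, 4 and 5, with overlapping ranges. Tumor cells held 0.543 to 0.792 CPM, so that NFs exceeded them 96.1-fold alone and 63.6-fold in shared gels. A log2 fold change of -0.66 ± 0.22 in CD26- NFs (adjusted p = 0.0378) was lost without the CD26- library of gel 4 (adjusted p = 0.142) or gel 5 (adjusted p = 0.161), with every gene of at least 1 count kept (0.0859) and by DESeq2 (0.0698).

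**Figure D3:**
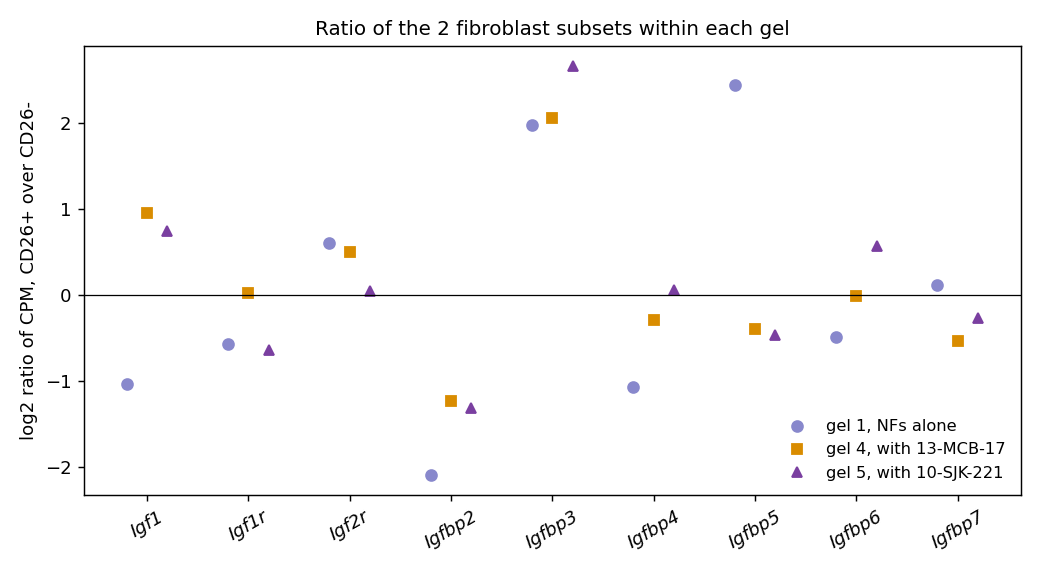
Log2 ratio of CPM in CD26+ over CD26- NFs within each gel, for 9 genes. Circles are gel 1 (NFs alone), squares gel 4 (with 13-MCB-17) and triangles gel 5 (with 10-SJK-221). Igfbp3 lies above 0 and Igfbp2 below 0 in all 3 gels, while Igf1 and Igfbp5 lie on opposite sides of 0 in gel 1 and in gels 4 and 5.

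Per length, the leading binding protein transcript differed between cultures in CD26- NFs, whereas Igfbp7 led in CD26+ NFs of gels 1, 4 and 5. Of the summed RPKM of the 6 genes, Igfbp4 took 62.5% in CD26- NFs alone and 3.02% and 3.36% in those of gels 4 and 5. In CD26+ NFs it took 39.1% alone and 3.05% and 3.35% in co-culture. Igfbp7 took 31.0% in CD26- NFs alone and 82.0% and 81.9% in co-culture, and 44.0% in CD26+ NFs alone and 69.9% and 65.3% in co-culture. The sum itself was 1622, 1358 and 1577 RPKM in CD26- NFs of gels 1, 4 and 5 and 1231, 1097 and 1644 RPKM in CD26+ NFs. The sums of NFs alone and of co-cultured NFs overlapped, while their make-up differed.

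Tumor cells had a summed binding protein level of 52.3 to 116 RPKM. Igfbp4 led it in 3 of the 4 tumor libraries, with 79.3% and 72.6% of the sum alone (13-MCB-17, 10-SJK-221) and 76.5% in co-cultured 10-SJK-221. In co-cultured 13-MCB-17 Igfbp7 led with 58.0% against 41.3% for Igfbp4. Igfbp3 took 23.2% and 11.3% in the 2 libraries of 10-SJK-221 and 0.03% in each library of 13-MCB-17. Set beside the ligand, Igf1 stood at 213 RPKM in CD26- and 104 RPKM in CD26+ NFs alone, and at 1.40 to 3.21 RPKM in co-cultured NFs.

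**Figure D4:**
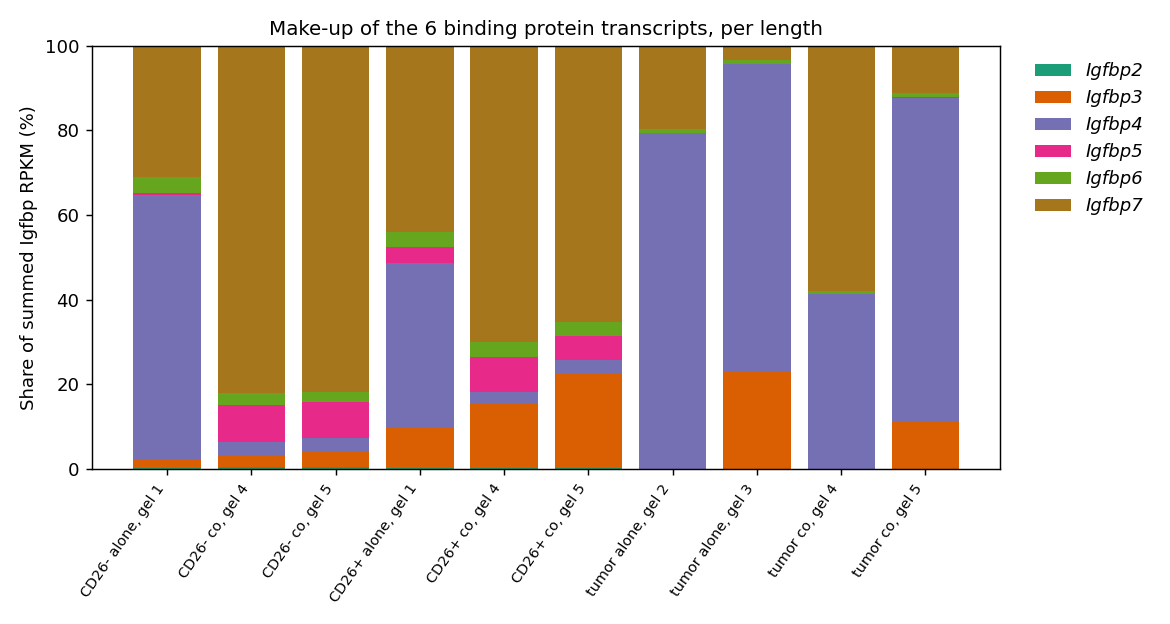
Make-up of the binding protein transcripts in each of the 10 libraries, as the share (%) of the summed RPKM of the 6 Igfbp genes. Igfbp4 takes 62.5% and 39.1% in NFs alone and 3.02 to 3.36% in co-cultured NFs, where Igfbp7 takes 65.3 to 82.0%.

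**Figure D5:**
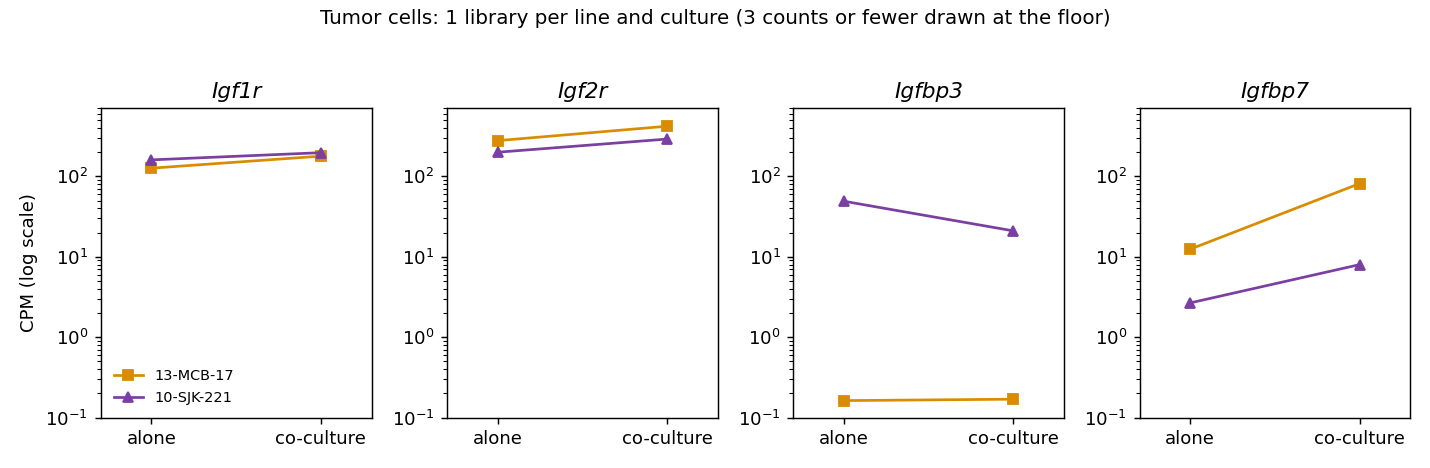
Level of 4 genes in tumor cells alone and in co-culture, in CPM on a log axis, with 1 library per point and a line joining the libraries of a tumor line (squares 13-MCB-17, triangles 10-SJK-221). Igf1r, Igf2r and Igfbp7 are higher in co-culture in both lines, and Igfbp3 is at the floor in 13-MCB-17 and at 49.0 and 21.0 CPM in 10-SJK-221.

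The comparisons can be set against all genes tested. Between NFs and tumor cells grown alone, 6 of the 10 members passed an adjusted p of 0.05 and all 6 were higher in NFs (Igf1, Igfbp2, Igfbp4, Igfbp5, Igfbp6, Igfbp7), where 55.5% of 17048 genes passed. In the shared gels 7 passed, all higher in NFs (Igf1, Igf2r, Igfbp2, Igfbp3, Igfbp5, Igfbp6, Igfbp7), against 51.8% of genes. The median log2 fold change of the members was 5.78 alone and 5.16 in shared gels, beside 0.02 and 0.06 over all genes tested. With the 4 genes near the floor in tumor cells at their bound, the medians of the log2 CPM ratios were 4.48 and 5.09. The Igfbp3 call in shared gels (5.30 ± 1.90, adjusted p = 0.045) was lost on leaving out any 1 of 5 libraries, with adjusted p of 0.0835, 0.0933, 0.104 and 0.126 without the CD26- library of gel 4 or 5 or the CD26+ library of gel 4 or 5, and 0.102 without co-cultured 13-MCB-17. Among cells grown alone, leaving out the CD26- library brought Igf2 (adjusted p = 0.0117) and Igf1r (adjusted p = 0.0332) past the threshold, leaving out 13-MCB-17 did so for Igf2r (adjusted p = 0.0472), and leaving out 10-SJK-221 for Igfbp3 (adjusted p = 0.00812).

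Between co-cultured NFs and NFs alone, 7 of the 9 members tested passed over both subsets, 5 higher (Igf1r, Igf2r, Igfbp3, Igfbp5, Igfbp7) and 2 lower (Igf1, Igfbp4), where 48.8% of 15013 genes passed. In CD26- NFs 6 of 10 passed, 3 higher and 3 lower, against 30.8% of 16231 genes. In CD26+ NFs 8 of 10 passed, 6 higher and 2 lower, against 34.2% of genes. The member medians of 0.59 over both subsets, 0.35 in CD26- and 0.77 in CD26+ NFs stood beside 0.02, 0.02 and 0.06 over all genes. Without the CD26+ library of gel 4 or of gel 5 the CD26+ count was 5, and Igfbp3 was among those lost without that of gel 5 (adjusted p = 0.32).

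Between subsets, 2 of 9 members tested passed over the 3 gels, with Igfbp3 higher and Igfbp2 lower in CD26+ NFs, where 7.53% of genes passed. Without gel 5 Igfbp2 was lost (adjusted p = 0.133), and without gel 4 Igf1r passed as well (-0.75, adjusted p = 0.0156), as it did by DESeq2 (-0.53, adjusted p = 0.0333). Within co-culture the same 2 genes passed, Igfbp3 at 2.27 ± 0.32 (adjusted p = 9.99e-04) and Igfbp2 at -1.44 ± 0.26 (adjusted p = 0.00488), against 6.01% of genes. With the gel as a replicate block 6 members passed within co-culture, since Igf1 (0.68, adjusted p = 0.00213), Igf1r (-0.48, adjusted p = 0.0389), Igfbp5 (-0.60, adjusted p = 0.00577) and Igfbp7 (-0.57, adjusted p = 0.0106) joined. That paired fit used the 4 co-cultured NF libraries and called 2407 genes in all. Without the block the same 4 libraries gave 977 genes and 2 members, and the fit of 6 libraries gave 975 genes. In the unpaired fit of 6 libraries both calls were lost without the CD26+ library of gel 4 (adjusted p = 0.154 for Igfbp2 and 0.142 for Igfbp3) or of gel 5 (0.1555 for both genes), and Igfbp2 without the CD26- library of gel 5 (adjusted p = 0.0725). Without those CD26+ libraries 0 and 2 genes were called in all (3284 genes had an unadjusted p under 0.05 in edgeR where 0 were called). In the interaction of subset and culture, 2 of 10 members passed, where 0.376% of genes did.

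Between co-cultured tumor cells and tumor cells alone, 4 of the 6 members tested passed (Igf1r, Igf2r and Igfbp7 higher, Igfbp3 lower), where 22.3% of 13197 genes passed. With 4 libraries and 2 terms that fit has 1 residual degree of freedom. A fit of all 10 libraries, with group and line as terms, called 2 of the 4 (Igf2r, Igfbp7), and 0 or 1 when any 1 tumor library was left out of that wider fit. Between lines, 3 of 6 passed, with Igfbp3 higher and Igf2r and Igfbp7 lower in 10-SJK-221, against 14.5% of genes. The line difference in Igf2r of -0.58 ± 0.11 (adjusted p = 0.00874) had an adjusted p of 0.0624 in the fit of all 10 libraries. NFs beside 10-SJK-221 and NFs beside 13-MCB-17 came from 1 gel each. In CD26+ NFs the largest ratios between them beside that of Igfbp3 were 1.64-fold for Igfbp4 and 1.40-fold for Igfbp7 (higher beside 10-SJK-221) and 1.52-fold for Igf1r (lower). CD26- NFs had ratios of 1.29 for Igfbp4, 1.16 for Igfbp7 and 1.04 for Igf1r, each higher beside 10-SJK-221, so that Igf1r differed in direction between subsets, and their largest ratio beside that of Igfbp3 was 1.37 for Igf1.

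Beside the members, 21 further genes of the pathway were examined, among them a protease of the binding proteins and its inhibitors. Pappa, a protease that cleaves IGFBP4, fell from 498 CPM in CD26- NFs alone to 21.3 and 24.1 CPM in gels 4 and 5, and from 302 to 60.0 and 24.5 CPM in CD26+ NFs, with a log2 fold change of -3.66 ± 0.37 over both subsets (adjusted p = 4.59e-05). Stc2, whose protein inhibits that protease, rose from 6.33 to 77.3 and 85.4 CPM in CD26- NFs and from 4.91 to 73.2 and 90.4 CPM in CD26+ NFs, by 3.91 ± 0.19 (adjusted p = 7.90e-07). Stc1, a related inhibitor, rose by 2.14 ± 0.28 (adjusted p = 2.28e-04). The groups of alone and co-cultured NFs did not overlap for any of the 3 genes.

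H19, the imprinted noncoding RNA next to Igf2, fell in NFs with a log2 fold change of -4.09 ± 0.34 (adjusted p = 1.31e-05), from 267 and 465 CPM alone to between 14.1 and 33.6 CPM. Grb14, an adaptor that damps insulin and IGF receptor signaling, fell with a log2 fold change of -3.04 ± 0.38. Igf2bp1, an RNA-binding protein gene, was higher in the co-cultured NF libraries by 3.11 ± 0.39, at 3.15 and 3.22 CPM (CD26-) and 13.6 and 11.8 CPM (CD26+) against 0.124 and 2.04 CPM alone, and stood at 69.8 to 102 CPM in tumor cells. At the epithelial-marker shares of those libraries tumor RNA would give 2.77 and 2.63 CPM in CD26- and 4.09 and 5.82 CPM in CD26+ NFs. In all, 10 of the 18 pathway genes tested passed in NFs over both subsets, 5 in each direction, beside 48.8% of all genes. Their median log2 change was -0.12. In the interaction of subset and culture 1 of 19 passed (0.376% of all genes did), H19, which had log2 fold changes of -3.07 ± 0.21 in CD26- and -4.95 ± 0.23 in CD26+ NFs (difference -1.88 ± 0.32, adjusted p = 0.0221). That call was lost without the CD26- library of gel 5 (adjusted p = 0.128) or either co-cultured CD26+ library (adjusted p = 0.637 and 0.409, where no gene was called, as for Igf1).

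Against tumor cells, 14 of 19 pathway genes passed in each culture, beside 55.5% of all genes alone and 51.8% in shared gels, with 9 higher and 5 lower in NFs alone and 8 higher and 6 lower in the shared gels. Grb10, an adaptor like Grb14, held 95.7 to 442 CPM in NFs. In tumor libraries it had at most 1 count (0.0566 CPM, under the floor), and Stc2 had 0 counts in all 4. Pappa, at 302 and 498 CPM in NFs alone, had 1 count in each library of tumor cells alone (0.0543 and 0.0636 CPM), under the floor. Igf2bp1 was lower in NFs by -7.08 ± 0.26 alone (adjusted p = 4.62e-07) and by -3.73 ± 0.15 in shared gels, and Igf2bp3 by -3.35 ± 0.24 in shared gels. Between subsets over the 3 gels, 5 of 18 passed, beside 7.53% of all genes. Igf2bp1 (2.07 ± 0.32), Igf2bp3 (1.55 ± 0.35) and Htra1, a serine protease gene (0.64 ± 0.14), were higher in CD26+ NFs, while Insr, the insulin receptor gene (-0.75 ± 0.14), and Tmem219, which encodes a receptor of IGFBP3 (-0.70 ± 0.18), were lower. The first 3 genes were higher in tumor cells than in NFs, and epithelial markers were higher in co-cultured CD26+ than CD26- NFs. At those shares tumor RNA would give 1.37 and 1.86 CPM of Igf2bp3 in CD26+ NFs of gels 4 and 5, where 6.17 and 3.89 CPM were seen, and 24.9 and 36.6 CPM of Htra1, where 270 and 324 CPM were seen. Gel 1 held no tumor cells and gave 1 library per subset. Its CD26+ NFs held 2.04 CPM of Igf2bp1, 3.58 CPM of Igf2bp3 and 286 CPM of Htra1. Its CD26- NFs held 1.18 CPM of Igf2bp3, 195 CPM of Htra1 and 2 counts of Igf2bp1 (0.124 CPM, under the floor). The part of tumor RNA in these subset differences was not tested. Without gel 5 all 5 calls were lost, with adjusted p of 0.143, 0.2005, 0.309, 0.268 and 0.203. Tmem219 was lost without gel 1 (adjusted p = 0.123) or gel 4 (adjusted p = 0.0806), and Igf2bp3 without gel 4 (adjusted p = 0.165).

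In co-cultured tumor cells 6 of 16 pathway genes passed and all 6 were higher, beside 22.3% of all genes, among them Stc1 (1.48 ± 0.30) and Pappa2, a second protease of the binding proteins (1.82 ± 0.27). H19 had 0 counts in both tumor lines alone and 79.1 CPM in 13-MCB-17 and 2.00 CPM in 10-SJK-221 from co-culture, beside 14.1 to 33.6 CPM in the NFs of those gels. The fit of all 10 libraries kept Pappa2 (adjusted p = 0.0109) and Stc1 (adjusted p = 0.00775) and lost Pappa (adjusted p = 0.0649), Irs2 (adjusted p = 0.1165) and Igf2bp1 (adjusted p = 0.1995). Leaving any 1 tumor library out of it lost Pappa2 (adjusted p from 0.0993 to 0.146), and leaving out either 13-MCB-17 library lost Stc1 (adjusted p = 0.445 and 0.453). Between lines 4 of 16 passed, 2 in each direction, beside 14.5% of all genes. Irs1, the docking protein of insulin and IGF receptors, was higher in 10-SJK-221 by 1.56 ± 0.16 (adjusted p = 6.15e-04) at 27.4 and 27.6 CPM against 8.20 and 9.56 CPM. Grb14 was at 1.43 and 1.97 CPM in 10-SJK-221 and at 0 and 1 count in 13-MCB-17.

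Across the 10 libraries, the genes whose log2(CPM + 1) followed a member most closely, among 9329 genes with a mean of at least 10 CPM, were Podn (r = 0.998) for Igf1, Scn7a (r = 0.991) for Igfbp4, Galnt18 (r = 0.998) for Igfbp5, Hhipl1 (r = 0.997) for Igfbp7, Gstm1 (r = 0.975) for Igfbp3 and Aldh1a3 (r = 0.986) for Igfbp2. For Igfbp6, Igf2r and Igf1r they were Rftn2 (r = 0.998), Adamts7 (r = 0.974) and Fam91a1 (r = 0.984), and for Igf2, near the floor in most libraries, Dmpk (r = 0.972). These are Pearson correlations over 10 libraries that share gels and fall into NFs and tumor cells, and they are given as a description. Among the members themselves Igf1 followed Igfbp4 most closely (r = 0.862), while Igfbp5 followed Igfbp6 (r = 0.95) and Igfbp7 (r = 0.941).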

How the data were processed

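RNA was measured in 10 libraries sorted from 5 gels. The authors aligned reads to GRCm38 with HISAT2 2.2.1, per the submitters' processing notes, and deposited whole-number counts per gene. The counter and its strand setting are not given in the sources used here. Of the gene IDs, 99.5% were in GENCODE M21. CPM and RPKM were computed from the deposited counts and the summed exon length.

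Tests were edgeR 4.0.16 quasi-likelihood F tests (limma 3.58.1, R 4.3.3) on the counts with TMM scaling, the filterByExpr filter and Benjamini-Hochberg adjustment over all genes tested, checked on simulated data. Fibroblast comparisons used the 6 NF libraries with subset and culture as terms, tumor comparisons the 4 tumor libraries with line and culture, and comparisons of NFs with tumor cells all 10 libraries. Calls needed an adjusted p under 0.05. The study's methods name DESeq2, which was run as an alternative (1.42.0), as were RLE scaling, no filter, a log2 fold change limit of 2, each library left out, the subsets summed per gel, and the gel as a replicate block.

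Members and lists were chosen with earlier results of these data known. All 10 members are named, and Igf2, near the floor, was left out of the plots of culture changes and subset ratios. Of the 21 pathway genes at most 6 per comparison could be named, by fold change among those called with a mean of at least 1 CPM. Gel numbers mark a shared gel in the labels, and deviations of gel 5 from gel 4 correlated at 0.216 between the NF subsets, 0.168 between CD26- NFs and tumor cells and 0.0875 between CD26+ NFs and tumor cells, over 17048 genes. Replicates differed by 18.5 to 61.1 in chi-square per gene, so that none looked like a library deposited a second time. Depth was 14142334 to 18408940 counts per library.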

Additional observations from a re-analysis of the deposited data

Results flagged for a closer look

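The co-culture difference of Igf1 and Igfbp5 differed between NF subsets by the interaction test, by 1.83 (Igf1) and -2.90 (Igfbp5) on the log2 scale, CD26+ minus CD26-. The log2 ratio of CD26+ over CD26- NFs for Igf1 was -1.03 in gel 1, 0.95 in gel 4 and 0.74 in gel 5. For Igfbp5 it was 2.44, -0.40 and -0.47 in the same gels.

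The signs of 3 further patterns were opposite between groups. The ratio of CD26+ over CD26- NFs for Igfbp7 was 0.11 in gel 1, -0.54 in gel 4 and -0.27 in gel 5 on the log2 scale, and its interaction of -0.52 ± 0.37 did not pass edgeR's test (adjusted p = 0.858). In tumor cells the log2 ratio of co-culture over alone was 0.21 in 13-MCB-17 and -0.11 in 10-SJK-221 for Igfbp4, with 1 library per value, and was not tested between lines. For Igfbp6 it was 0.54 and -0.032, at under 1 CPM in every tumor library, and was not tested either.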

How the results depend on the processing

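Of 84 recomputed counts of members called, 56 stayed within 1.5 times the reported count and 28 did not. Of 1174 recomputed single-gene results, 965 kept their direction and side of the threshold, 172 lost the call, 13 gained it and 24 changed sign. Requiring a log2 fold change above 2 left 1 member between subsets over 3 gels, 1 within co-culture, 3 between NF cultures, 3 in CD26- and 2 in CD26+ NFs, 1 in the interaction and 1 between tumor cultures. DESeq2 called 4 members between subsets in co-culture and 2 between tumor cultures. Keeping every gene with 1 count left 4 in CD26+ NFs and 1 in the interaction. With the replicate block (gel), 6 were called between subsets in co-culture, and it changed no other member's call. For tumor cultures a fit of all 10 libraries called 2 members, and an edgeR fit without the line called 0, with 0 genes in all against 2942 with the line, and 2207 against 4684 genes at an unadjusted p under 0.05 (DESeq2 was not run without the line). Leaving out libraries gave 1 to 3 members between subsets over 3 gels, 0 to 2 in co-culture, 5 in CD26+ NFs, 0 to 1 in the interaction and 0 to 1 between tumor cultures. Libraries were left out of the tumor comparisons in the fit of all 10 libraries, since 3 tumor libraries leave no residual degree of freedom, so that those values are to be set against that fit.

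Sign changes, all of results that had missed the threshold except Igfbp3 in tumor cells, are given as log2 values, with the range over all libraries or gels left out. For NFs against tumor cells in shared gels Igfbp4 ran from -0.049 (without the gel 5 CD26+ library) to 0.35. For subsets over 3 gels Igf1 was -0.0056 with every gene kept and ran from -0.34 (without gel 4; -0.23 without gel 5) to 0.66, Igfbp5 from -0.60 (without gel 1) to 0.87 and Igfbp6 from -0.39 to 0.13 (without gel 1). For subsets in co-culture Igf2r ran from -0.026 and -0.02 (without the gel 4 CD26- or CD26+ library) to 0.23, Igfbp4 from -0.71 to 0.078 (without the gel 4 CD26+ library) and Igfbp6 from -0.16 (without the gel 5 CD26+ library) to 0.35. For cultures in CD26+ NFs Igfbp6 ran from -0.21 (without that of gel 5) to 0.30. In the interaction Igf2 ran from -1.87 to 1.28 (without the gel 4 CD26- library), Igf1r from -0.072 (without the gel 4 CD26+ library) to 0.46 and Igfbp3 from -0.32 (without the gel 5 CD26+ library) to 0.90. For tumor cultures Igfbp4 ran from -0.11 and Igfbp6 from -0.034 (without either 13-MCB-17 library) to 0.16 and 0.50, and Igfbp3 from -1.23 to 0.92 (without either 10-SJK-221 library). For lines Igfbp4 ran from -0.11 (without either library grown alone) to 0.17, and Igfbp6 from -0.24 to 0.29 (without either co-cultured library).

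Over all genes, the limit of 2 took calls from 9458 to 4899 (NFs against tumor cells alone), 8839 to 3999 (shared gels), 1130 to 192 (subsets, 3 gels), 975 to 223 (subsets, co-culture), 7325 to 2047 (NF cultures), 4997 to 1857 (CD26-), 5556 to 2161 (CD26+), 2942 to 418 (tumor cultures) and 1910 to 278 (lines). Without the filter calls were 603 for subsets in co-culture, 18 against 61 in the interaction and 2917 for lines. DESeq2 called 98, 1568 and 945 genes in the interaction, tumor cultures and lines. The replicate block called 2407 for subsets in co-culture (977 in the same 4 libraries without it) and 395 in the interaction. The 10-library fit called 1817 (tumor cultures) and 1065 (lines). Leaving out gel 5 gave 17 (subsets, 3 gels), and leaving out the gel 4 library gave 2947 (CD26-) and 3200 (CD26+). Leaving out 1 library gave 0 to 451 (subsets, co-culture; the 0 came without the gel 4 CD26+ library, with 3284 genes at an unadjusted p under 0.05), 0 to 30 (interaction; 0 without the CD26+ library of gel 4 or 5, with 1232 and 1772 such genes), and, in the 10-library fit, 406 to 1014 (tumor cultures) and 401 to 526 (lines). The cause of these changes was not tested. NFs alone come from 1 gel, and Igf2 and the Igf1, Igfbp2 and Igfbp5 levels of tumor cells lie at the detection floor.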
